A study of Mus musculus with 32 samples.

Results

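The 9 genes described here encode carriers that move organic ions and drugs into and out of kidney tubule cells. They were chosen by name, with earlier results of these data known, and make up 9 of the 20659 named genes on the array. Probes were matched to them through the transcript accession of each probe. The 4 uptake genes were Slc22a2, Slc22a6, Slc22a8 and Slc22a12, and the 5 efflux genes were Slc47a1, Abcc2, Abcc4, Abcb1a and Abcb1b. Each gene had 1 probe, bright enough to be told from background in every sample, so that all 9 were tested.

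The study profiled whole ground kidneys of 32 male mice aged 12 to 16 weeks. There were 4 groups of mice that lack miR-155, a short regulatory RNA best known from immune cells (miR-155-/-, strain B6.Cg-Mir155tm1.1Rsky/J, from Jackson) and 4 of wild type C57BL/6 mice of another supplier, Charles River. Within each genotype, 1 group received saline and served as the 0 h group, and the others were taken 24, 48 and 72 h after a single 20 mg/kg dose of cisplatin, a platinum drug toxic to tubule cells. Each group held 4 independent animals, each on 1 array, spread over 8 slides and 2 scan days. Genotype and supplier cannot be told apart.

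Proximal tubule cells clear drugs by vectorial transport, in which carriers of the blood-facing membrane load the cell and carriers of the urine-facing membrane empty it. Cisplatin itself is known to enter these cells through the cation carrier OCT2, the product of Slc22a2, and to leave through MATE1, the product of Slc47a1. Carriers of the OAT family exchange organic anions for dicarboxylates held in the cell, and the ABC carriers use ATP to expel conjugates and bulky drugs.

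Levels are the log2 of the processed signal minus the 75th percentile of the same array, so that 0 is the signal at that percentile. A level is compared for the same probe between groups and never between genes. Differences come from limma, fitted to 8 group means over all 32 arrays, with a standard error (±). A gene was called, and is said to rise or fall, at a p under 0.05 after Benjamini-Hochberg adjustment over all 23743 genes and transcripts tested. In whole tissue, fewer cells of a type and less RNA per cell cannot be told apart.

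The array of replicate 3 at 48 h in miR-155-/- mice stood apart, with a mean correlation of 0.960 with the other arrays of its group over all tested genes, as did replicate 3 at 24 h in miR-155-/- mice with 0.968. The other 30 arrays lay between 0.981 and 0.995. The 15 proximal tubule markers, such as Lrp2 and Slc34a1, were all tested, with a list mean between 5.07 and 5.42 on the arrays of saline-treated miR-155-/- mice and between 5.14 and 5.27 on those of saline-treated wild type mice. Only 2 of 5 adrenal cortex markers were tested, and their list mean stayed between -7.67 and -4.86 on all arrays.

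After cisplatin Slc22a2, Slc22a6, Slc22a12 and Slc47a1 fell and Abcc2, Abcb1a and Abcb1b rose at every time in both genotypes. Slc22a8 fell at 24 h in both genotypes and at 48 h in miR-155-/- kidneys, and Abcc4 rose at 72 h in both. Of the 9 genes 8 were called in miR-155-/- kidneys at 24 h (3 higher and 5 lower), against 49.1% of all tested genes (26.6% higher and 22.5% lower). At 48 h 8 were called (3 higher and 5 lower), against 43.8% (22.7% higher and 21.1% lower), and at 72 h 8 (4 higher and 4 lower), against 35.2% (17.7% higher and 17.5% lower). The wild type kidneys had 8 of the 9 called at 24 h (3 higher and 5 lower), against 38.7% of all tested genes (21.0% higher and 17.6% lower). At 48 h 7 were called (3 higher and 4 lower), against 23.8% (12.2% higher and 11.6% lower), and at 72 h 8 (4 higher and 4 lower), against 25.3% (12.5% higher and 12.8% lower). The 3 times of a genotype share their saline mice. The 9 genes and the lists given below were chosen with earlier results of these data known. Their counts beside the shares of all tested genes therefore describe the lists and do not test them.

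By median, the uptake and efflux genes parted in direction. The median log2 difference of the 4 uptake genes was -1.09, -1.25 and -1.15 at 24, 48 and 72 h in miR-155-/- kidneys and -0.94, -0.86 and -0.61 in wild type kidneys. That of the 5 efflux genes was 0.84, 0.997 and 0.90 in miR-155-/- kidneys and 1.40, 1.22 and 1.21 in wild type kidneys. The median over all tested genes stayed between -0.05 and 0.07 in these 6 comparisons. No uptake gene rose in any of them, and among the efflux genes Slc47a1 was the one that was lower at every time. Abcc4, also an efflux gene, was below saline at 24 h (-0.82 in miR-155-/- and -0.67 in wild type kidneys), neither called.

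**Figure D1:**
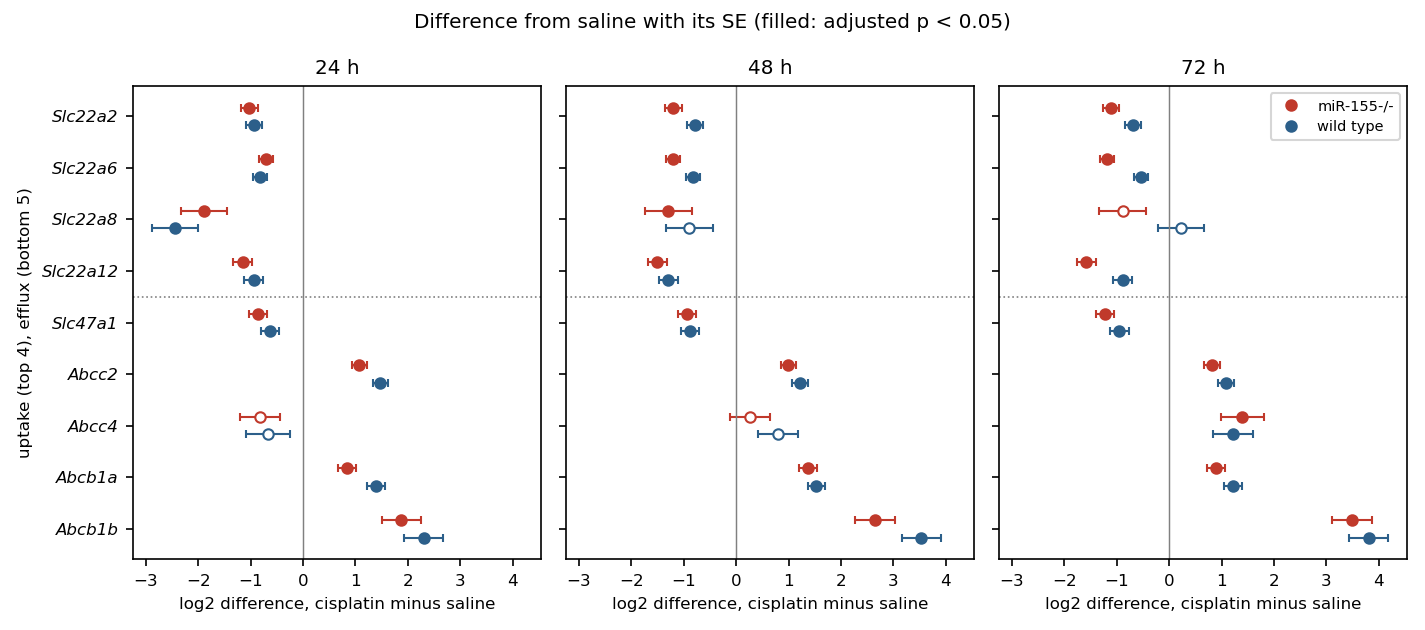
Log2 difference from saline (x axis, cisplatin minus saline, bars are standard errors) of the 9 transporter genes at 24, 48 and 72 h, in miR-155-/- kidneys (red) and wild type kidneys (blue), with filled points for adjusted p under 0.05. The uptake genes above the dotted line lie left of 0 at 24 h in both genotypes, and Abcb1b lies farthest right at every time, up to 3.49 in miR-155-/- and 3.81 in wild type kidneys at 72 h.

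Slc22a2 encodes OCT2, the cation carrier of the blood-facing membrane that takes up cisplatin. On the miR-155-/- arrays Slc22a2 levels were 4.35, 4.29, 4.11 and 4.42 after saline, 3.33, 3.24, 3.46 and 3.04 at 24 h, 3.28, 3.46, 2.42 and 3.22 at 48 h, and 3.09, 3.24, 3.17 and 3.21 at 72 h. Wild type levels were 4.33, 4.26, 4.23 and 4.37 after saline, 3.58, 3.08, 3.57 and 3.20 at 24 h, 3.18, 3.42, 3.69 and 3.76 at 48 h, and 3.63, 3.73, 3.59 and 3.50 at 72 h. All cisplatin arrays of both genotypes lay below all saline arrays, and each of the 6 cisplatin groups overlapped the next in order of mean level. The differences from saline were -1.02, -1.20 and -1.11 (each ± 0.16) at 24, 48 and 72 h in miR-155-/- kidneys, with limma adjusted p of 6.67e-06, 8.43e-07 and 2.35e-06. The differences in wild type kidneys were -0.94, -0.78 and -0.69 (each ± 0.16), with limma adjusted p of 2.56e-05, 4.37e-04 and 0.00151. Slc22a2 thus stood 2.16-fold lower in miR-155-/- kidneys and 1.61-fold lower in wild type kidneys 72 h after cisplatin than after saline.

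Slc22a6 encodes OAT1, the carrier that loads proximal tubule cells with p-aminohippurate and many anionic drugs. The miR-155-/- levels were 6.57, 6.28, 6.14 and 6.56 after saline, 5.68, 5.50, 5.68 and 5.87 at 24 h, 5.17, 5.33, 5.05 and 5.15 at 48 h, and 5.11, 5.35, 5.13 and 5.20 at 72 h. Levels on wild type arrays were 6.54, 6.41, 6.43 and 6.45 after saline, 5.73, 5.57, 5.71 and 5.52 at 24 h, 5.33, 5.21, 5.99 and 6.00 at 48 h, and 5.83, 5.99, 6.00 and 5.83 at 72 h. No cisplatin array reached a saline array in either genotype, and the miR-155-/- arrays of 48 and 72 h were lower than those of 24 h. Slc22a6 differed from saline by -0.70, -1.21 and -1.19 in miR-155-/- kidneys and -0.82, -0.82 and -0.54 in wild type kidneys at 24, 48 and 72 h (each ± 0.13), all called, with limma adjusted p between 5.42e-08 and 0.00289.

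Slc22a8, the next gene to Slc22a6 on chromosome 19, encodes OAT3, a second anion carrier of the blood-facing membrane. Levels of Slc22a8 in miR-155-/- kidneys were 0.01, 0.01, 0.18 and 0.50 after saline, -1.16, -1.98, -1.62 and -2.08 at 24 h, -0.53, -0.48, -3.09 and -0.36 at 48 h, and -0.86, -1.04, -0.95 and 0.01 at 72 h. Wild type levels of Slc22a8 were -0.63, -0.20, -0.13 and 0.19 after saline, -2.94, -2.94, -1.69 and -2.97 at 24 h, -1.86, -1.84, -0.07 and -0.55 at 48 h, and 0.25, -0.18, 0.16 and -0.10 at 72 h. At 24 h all arrays lay below those of saline, and at 48 h wild type kidneys had 2 arrays below the saline range and 2 within it. At 72 h the groups overlapped in both genotypes. In miR-155-/- kidneys they did so only just, with a highest level of 0.0146 against a lowest saline level of 0.0139. The fall at 24 h was 3.70-fold in miR-155-/- kidneys (-1.89 ± 0.44, limma adjusted p = 9.23e-04) and 5.45-fold in wild type kidneys (-2.45 ± 0.44, limma adjusted p = 7.42e-05), the widest of the 9 genes in either genotype. At 72 h the difference from saline was -0.89 ± 0.44 in miR-155-/- kidneys (limma adjusted p = 0.125) and 0.22 ± 0.44 in wild type kidneys (limma adjusted p = 0.760), so that neither was called. The miR-155-/- value was called after normexp background correction (-0.86, limma adjusted p = 0.0321), and at the same size with only the groups compared (limma adjusted p = 0.00939) or without the 2 arrays that stand apart (limma adjusted p = 0.0291). The wild type value came to -0.0082 with slide as a block. Wild type kidneys had Slc22a8 6.36-fold higher at 72 h than at 24 h (2.67 ± 0.44, limma adjusted p = 4.21e-05).

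At 48 h the call of Slc22a8 in miR-155-/- kidneys was lost under several alternatives. For miR-155-/- kidneys the difference from saline was -1.29 ± 0.44 (limma adjusted p = 0.0197), and without replicate 3 at 48 h it was -0.63 (limma adjusted p = 0.176). It also missed the threshold without replicate 4 of the saline group (-1.19, limma adjusted p = 0.0538), after normexp (-0.68, limma adjusted p = 0.0968) and with only the groups compared (limma adjusted p = 0.113). For wild type kidneys it was -0.89 ± 0.44 (limma adjusted p = 0.152), and the same difference was called once both arrays that stand apart were left out of the fit (limma adjusted p = 0.0354).

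The promoters of these neighbouring genes are shown because both genes fell at 24 h. The windows run from 250 bases before to 50 bases after the start site in RefSeq on GRCm38.p6, for Slc22a6 at chr19:8617746-8618045 and for Slc22a8 at chr19:8592932-8593231, both on the plus strand. Capitals mark GTTAAT, 1 of the motifs searched.
Slc22a6: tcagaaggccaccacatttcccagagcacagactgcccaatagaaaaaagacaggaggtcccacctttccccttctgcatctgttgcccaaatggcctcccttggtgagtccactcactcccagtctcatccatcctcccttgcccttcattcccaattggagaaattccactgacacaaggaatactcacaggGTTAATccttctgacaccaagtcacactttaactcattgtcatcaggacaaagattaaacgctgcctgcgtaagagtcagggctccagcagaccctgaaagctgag
Slc22a8: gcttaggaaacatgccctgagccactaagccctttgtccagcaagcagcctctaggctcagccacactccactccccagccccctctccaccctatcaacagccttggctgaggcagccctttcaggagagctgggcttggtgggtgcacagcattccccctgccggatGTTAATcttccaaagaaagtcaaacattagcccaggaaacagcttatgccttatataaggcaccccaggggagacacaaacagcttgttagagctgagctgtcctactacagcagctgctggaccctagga
The motif begins at -56 in Slc22a6 and at -81 in Slc22a8, counted from the start site, and both lie on the gene's strand. Of the 9 windows found for 8 of the 9 genes, these 2 held it on either strand, as did 7.1% of 32851 promoter windows of the same length. A match of letters is a description of the window, not a bound site.

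Slc22a12 encodes URAT1, which takes up urate from the urine. Its levels after saline were 4.62, 4.67, 4.19 and 4.80 in miR-155-/- kidneys and 4.57, 4.35, 4.47 and 4.55 in wild type kidneys. At 24 h its levels were 3.47, 3.19, 3.82 and 3.22 in miR-155-/- kidneys and 3.59, 3.38, 3.80 and 3.40 in wild type kidneys, and at 48 h 3.15, 3.21, 2.80 and 3.11 in miR-155-/- kidneys and between 2.74 and 3.61 in wild type kidneys. At 72 h they were 2.87, 2.98, 2.65 and 3.47 in miR-155-/- kidneys and 3.42, 3.77, 3.56 and 3.64 in wild type kidneys. The saline arrays stood above all cisplatin arrays, and 1 miR-155-/- array at 72 h reached into the range of wild type arrays of that time. The differences from saline at 24, 48 and 72 h were -1.15, -1.51 and -1.58 in miR-155-/- kidneys and -0.94, -1.30 and -0.89 in wild type kidneys (each ± 0.18), all called, with limma adjusted p between 9.25e-08 and 4.63e-04. The fall at 72 h was 2.99-fold in miR-155-/- kidneys and 1.85-fold in wild type kidneys.

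**Figure D2:**
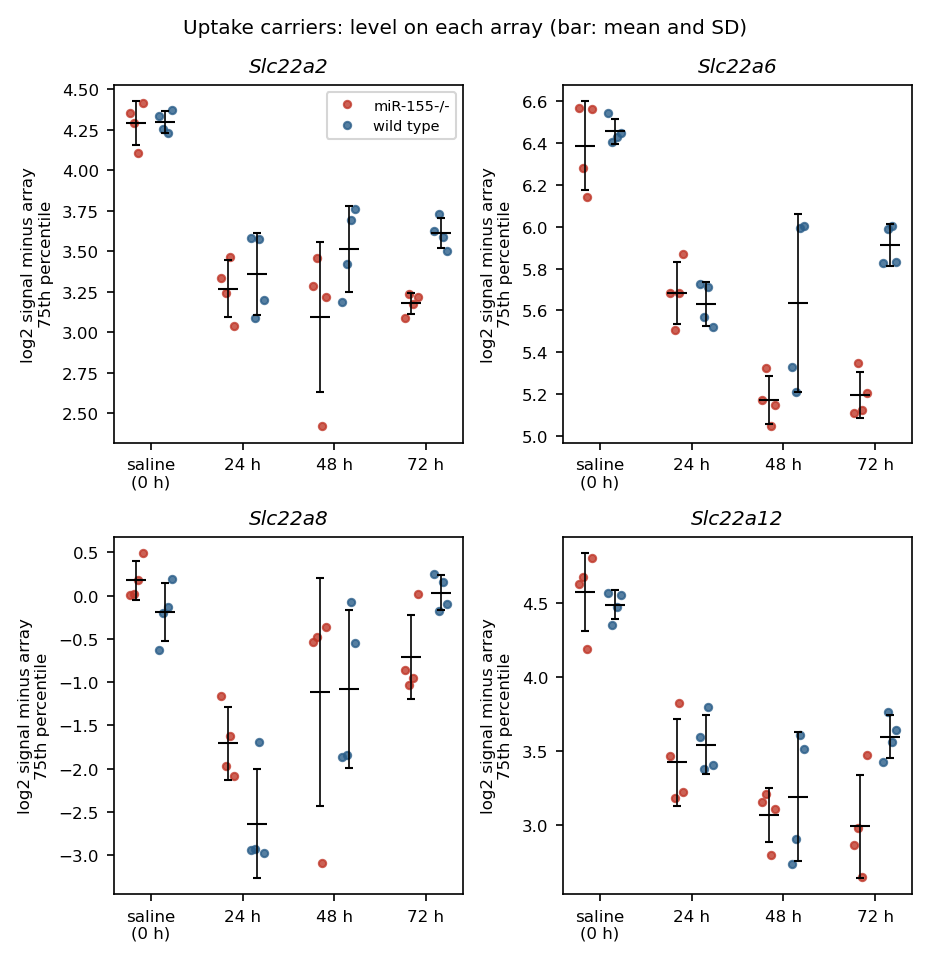
Level of the 4 uptake genes on each array (y axis, log2 signal minus the array's 75th percentile) by time after injection (x axis), with miR-155-/- arrays in red left of wild type arrays in blue, and a bar for mean and SD of each group. Slc22a8 in wild type kidneys at 72 h, between -0.18 and 0.25, overlapped its saline arrays, while the other 3 genes stayed below theirs. In miR-155-/- kidneys at 72 h the highest Slc22a8 array, at 0.0146, only just reached the lowest saline array, at 0.0139.

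The proximal tubule markers moved with the uptake genes. Of 15 markers, 14, 12 and 12 were called lower at 24, 48 and 72 h in miR-155-/- kidneys, with median differences of -1.11, -1.18 and -1.36, against 22.5%, 21.1% and 17.5% of all tested genes called lower. Those of wild type kidneys were called lower in 14, 9 and 8 cases and higher in 0, 1 and 2, with medians of -1.51, -0.91 and -0.87, against 17.6%, 11.6% and 12.8% of all tested genes called lower. Markers of the loop of Henle, distal nephron and collecting duct fell as well, with 8, 10 and 6 of 12 called lower in miR-155-/- kidneys (medians -1.59, -1.55 and -0.99) and 9, 6 and 5 in wild type kidneys (medians -1.55, -0.80 and -0.59), and 0 higher. At 72 h the proximal tubule list mean lay between 3.65 and 4.18 on miR-155-/- arrays and between 4.25 and 4.48 on wild type arrays, below the saline ranges given above. The part of the markers' fall in that of the uptake genes was not tested.

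Slc47a1 encodes MATE1, the cation and proton exchanger of the urine-facing membrane that passes on what OCT2 brings in. The 4 miR-155-/- arrays per time gave 3.27, 3.38, 3.03 and 3.39 after saline, 2.60, 2.62, 2.13 and 2.30 at 24 h, 2.67, 2.46, 1.68 and 2.52 at 48 h, and 1.90, 2.05, 1.92 and 2.29 at 72 h. The wild type arrays gave 3.31, 2.98, 3.33 and 3.52 after saline, 2.52, 2.70, 2.83 and 2.53 at 24 h, 2.08, 2.11, 2.79 and 2.60 at 48 h, and 2.35, 2.38, 2.31 and 2.30 at 72 h. The saline arrays were the highest in both genotypes, and no cisplatin group overlapped them. The differences from saline at 24, 48 and 72 h were -0.86, -0.93 and -1.23 in miR-155-/- kidneys and -0.64, -0.89 and -0.95 in wild type kidneys (each ± 0.17), all called, with limma adjusted p between 2.57e-06 and 0.00445. Among the 5 efflux genes Slc47a1 alone was called lower at any time in these 6 comparisons, although Abcc4 was called lower too at 24 h under some alternatives, slide as a block among them.

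Slc47a2, the other gene of the MATE family and the neighbour of Slc47a1, ran the other way at 24 h. It was 2.30-fold higher than after saline in miR-155-/- kidneys (1.20 ± 0.21, limma adjusted p = 4.53e-05) and 2.35-fold higher in wild type kidneys (1.23 ± 0.21, limma adjusted p = 4.33e-05). At 72 h its difference from saline was -0.14 ± 0.21 in miR-155-/- kidneys and -0.38 ± 0.21 in wild type kidneys, neither called. Slc47a2 was picked out after its values were seen.

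Abcc2 encodes MRP2, an ATP-driven pump of the urine-facing membrane for glutathione and glucuronide conjugates. Abcc2 levels on miR-155-/- arrays were 2.36, 2.50, 2.31 and 2.71 after saline, 3.79, 3.64, 3.02 and 3.73 at 24 h, 3.66, 3.69, 2.94 and 3.58 at 48 h, and 3.12, 3.39, 3.35 and 3.30 at 72 h. Abcc2 levels on wild type arrays were 2.45, 2.34, 2.52 and 2.48 after saline, 3.85, 3.87, 3.92 and 4.04 at 24 h, 3.44, 3.63, 3.79 and 3.81 at 48 h, and 3.38, 3.63, 3.43 and 3.71 at 72 h. All cisplatin arrays were above all saline arrays, and the wild type arrays of 24 h were the highest of the 32. Abcc2 differed from saline by 1.08, 0.997 and 0.82 in miR-155-/- kidneys and 1.47, 1.22 and 1.09 in wild type kidneys at 24, 48 and 72 h (each ± 0.15), all called, with limma adjusted p between 8.67e-09 and 6.92e-05. The rise at 24 h was 2.11-fold in miR-155-/- and 2.78-fold in wild type kidneys.

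Abcb1a and Abcb1b are a pair of neighbouring mouse genes for P-glycoprotein, a pump of bulky, mostly hydrophobic drugs, which humans encode in a single gene. Abcb1b rose most of the 9 genes at every time in both genotypes. Levels of Abcb1b in miR-155-/- kidneys were -2.13, -2.41, -2.68 and -2.61 after saline, -0.12, -0.16, -1.94 and -0.12 at 24 h, 0.52, 0.96, -1.39 and 0.68 at 48 h, and 1.33, 0.82, 1.05 and 0.92 at 72 h. Levels of Abcb1b in wild type kidneys were -3.29, -2.50, -2.32 and -1.76 after saline, -0.14, -0.17, 0.03 and -0.39 at 24 h, 1.03, 0.94, 1.15 and 1.15 at 48 h, and 1.09, 1.52, 1.55 and 1.20 at 72 h. No cisplatin array overlapped the saline arrays of its genotype, but the 2 arrays that stand apart were the lowest miR-155-/- arrays of their times. The differences from saline at 24, 48 and 72 h were 1.87, 2.65 and 3.49 in miR-155-/- kidneys, with limma adjusted p of 1.85e-04, 2.91e-06 and 3.16e-08. The wild type differences were 2.30, 3.53 and 3.81, with limma adjusted p of 2.01e-05, 5.18e-08 and 1.32e-08 (each ± 0.38). These were 3.66-, 6.27- and 11.2-fold rises in miR-155-/- kidneys and 4.92-, 11.6- and 14.0-fold rises in wild type kidneys. Without replicate 3, the miR-155-/- difference was 2.32 at 24 h and 3.18 at 48 h.

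Abcb1a rose at every time too. Its levels after saline were -2.59, -2.59, -2.98 and -3.10 in miR-155-/- kidneys and -3.30, -3.24, -3.01 and -2.61 in wild type kidneys, and at 48 h -1.45, -1.54, -1.38 and -1.41 in miR-155-/- kidneys and -1.47, -1.78, -1.22 and -1.55 in wild type kidneys. At 24 h they were -1.60, -1.95, -2.38 and -1.99 in miR-155-/- kidneys and -1.31, -1.81, -1.57 and -1.88 in wild type kidneys, and at 72 h between -2.16 and -1.64 in miR-155-/- kidneys and -1.79, -1.80, -1.76 and -1.93 in wild type kidneys. All cisplatin arrays lay above the saline arrays of their genotype. The differences from saline at 24, 48 and 72 h were 0.84, 1.37 and 0.90 in miR-155-/- kidneys and 1.40, 1.53 and 1.22 in wild type kidneys (each ± 0.17), all called, with limma adjusted p between 9.44e-08 and 1.96e-04. The miR-155-/- value of 24 h was not called after normexp background correction (0.58, limma adjusted p = 0.0814). Probes of this pair and of the adjoining Abcb4 may share signal, as the genes are close relatives, which was not tested. P-glycoprotein is also known from endothelium, and of 7 endothelial markers 5, 2 and 3 were called lower and 0 higher at 24, 48 and 72 h in miR-155-/- kidneys, and 1, 1 and 2 lower and 0 higher in wild type kidneys. All tested genes called lower made up 22.5%, 21.1% and 17.5% in miR-155-/- and 17.6%, 11.6% and 12.8% in wild type kidneys at these times. Which cells gave the Abcb1a and Abcb1b signal was not tested.

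The promoter window of Abcb1b is shown because this gene rose most. It lies at chr5:8797897-8798196 on the plus strand of GRCm38.p6 (RefSeq), and capitals mark CCAAT, here once on each strand, and GGGCGG.
Abcb1b: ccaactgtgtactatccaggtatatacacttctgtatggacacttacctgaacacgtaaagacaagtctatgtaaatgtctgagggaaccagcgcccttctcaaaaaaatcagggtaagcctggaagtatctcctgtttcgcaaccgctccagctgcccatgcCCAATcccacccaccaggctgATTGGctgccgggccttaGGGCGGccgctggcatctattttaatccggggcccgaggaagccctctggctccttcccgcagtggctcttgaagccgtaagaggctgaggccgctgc
The CCAAT boxes begin at -87 and -66 and the GC box at -48 from the start site, without overlap. CCAAT was held by 37.4% and GGGCGG by 35.7% of all promoter windows. The window of Abcb1a held neither, and none of the 9 windows held TATAAA, which 13.6% of all windows did.

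Abcc4 encodes MRP4, a pump for cyclic nucleotides, urate and anionic drugs, and it was called at 72 h alone. Abcc4 in miR-155-/- kidneys stood at 0.18, 0.42, 0.55 and 0.24 after saline, 0.42, 0.24, -1.90 and -0.65 at 24 h, 0.96, 1.07, -0.92 and 1.34 at 48 h, and 1.60, 1.67 and 1.95 at 72 h. Abcc4 in wild type kidneys stood at 0.38, 0.14, 0.13 and 0.29 after saline, -0.70, -0.72 and 0.13 at 24 h, 1.25, 0.85, 1.07 and 0.98 at 48 h, and 1.35, 1.25, 1.65 and 1.53 at 72 h. The 72 h arrays lay above all saline arrays in both genotypes, and at 24 h 2 miR-155-/- arrays lay within the saline range and 2 below it, while the 3 wild type arrays lay below theirs, 1 of them only just. Replicate 4 is missing at 72 h in miR-155-/- and at 24 h in wild type kidneys because its spot carried an outlier flag, so that these groups entered the fit with 3 arrays. The flagged spot read 1.79 in miR-155-/- and 5.20 in wild type kidneys.

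At 72 h Abcc4 was higher than after saline by 1.39 ± 0.41 in miR-155-/- kidneys (limma adjusted p = 0.00992) and by 1.21 ± 0.38 in wild type kidneys (limma adjusted p = 0.0207). Against 24 h it was higher by 2.21 ± 0.41 in miR-155-/- kidneys (limma adjusted p = 2.17e-04) and by 1.88 ± 0.41 in wild type kidneys (limma adjusted p = 0.00118). With slide as a block the 72 h differences from saline were 0.69 in miR-155-/- kidneys (limma adjusted p = 0.207) and 0.59 in wild type kidneys (limma adjusted p = 0.294), and the wild type call was also lost without replicate 3 at 72 h (1.14, limma adjusted p = 0.0578). At 24 h the differences were -0.82 ± 0.38 in miR-155-/- and -0.67 ± 0.41 in wild type kidneys, and at 48 h 0.27 ± 0.38 in miR-155-/- and 0.80 ± 0.38 in wild type kidneys, none called. Both wild type values were called with only the groups compared (limma adjusted p = 0.0233 at 24 h and 5.04e-04 at 48 h) and without the 2 arrays that stand apart (limma adjusted p = 0.00812 and 0.00157). With slide as a block the 24 h difference was -1.17 in miR-155-/- kidneys (limma adjusted p = 0.0119) and -1.07 in wild type kidneys (limma adjusted p = 0.0420). Without replicate 3 the miR-155-/- value of 24 h was -0.34 (limma adjusted p = 0.427). The miR-155-/- value of 48 h was 0.78 without the 2 arrays that stand apart (limma adjusted p = 0.00358) and that of 24 h was called without replicate 1 (-1.12, limma adjusted p = 0.0197) or replicate 2 (-1.06, limma adjusted p = 0.0325). With the flagged spots kept, the 72 h differences from saline were 1.41 in miR-155-/- kidneys (limma adjusted p = 0.154) and 1.21 in wild type kidneys (limma adjusted p = 0.261), neither called, the wild type difference between 72 and 24 h was 0.47 (limma adjusted p = 0.727), and the wild type value of 24 h turned to 0.74.

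**Figure D3:**
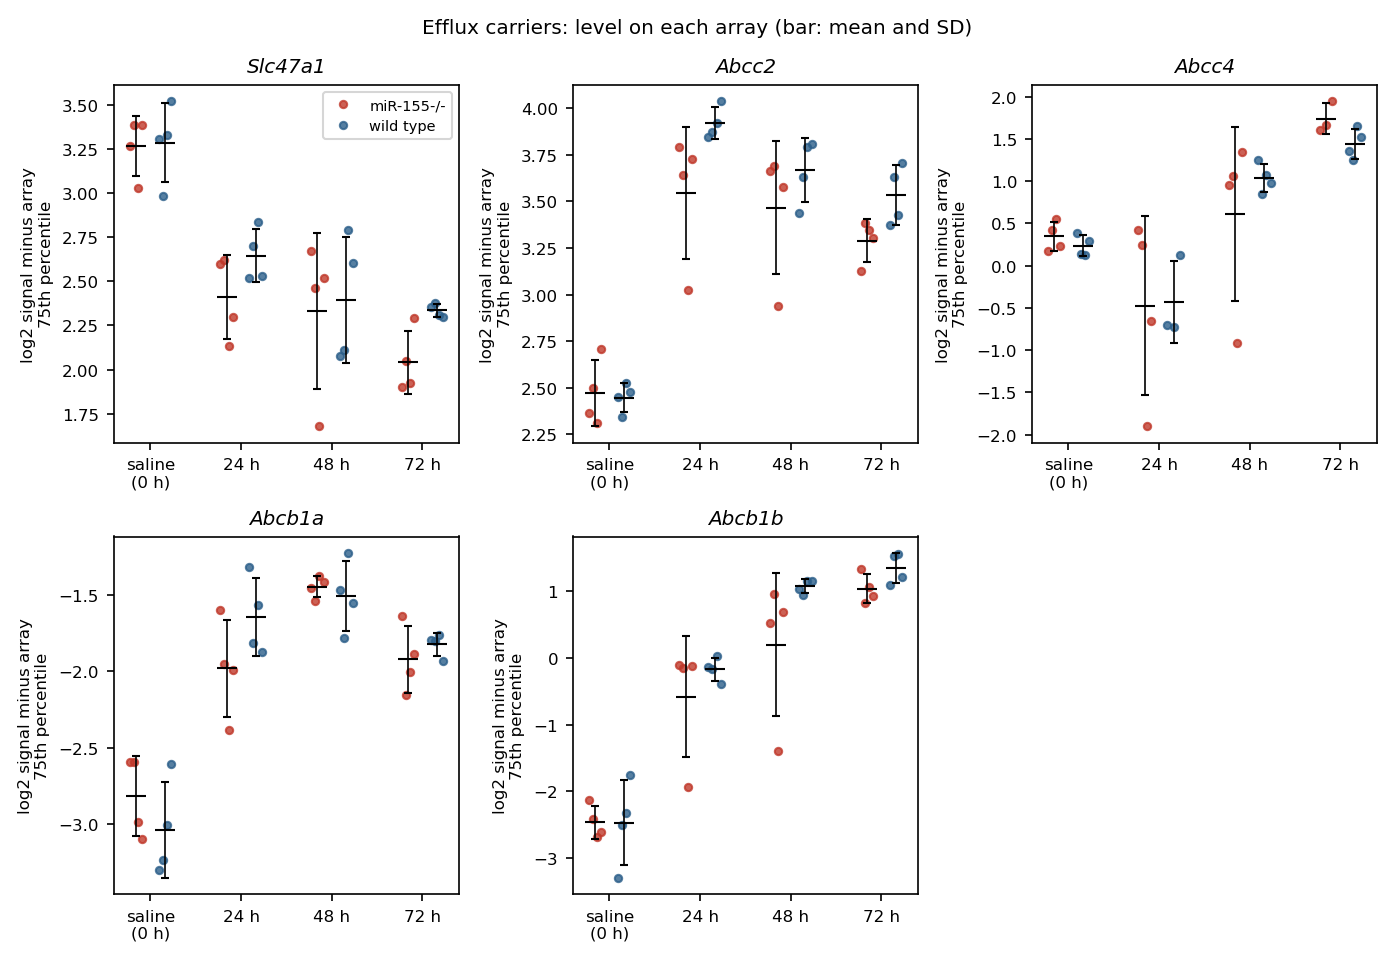
Level of the 5 efflux genes on each array (y axis, log2 signal minus the array's 75th percentile) by time after injection (x axis), with miR-155-/- arrays in red left of wild type arrays in blue, and a bar for mean and SD of each group. Slc47a1 steps down after saline, Abcc2, Abcb1a and Abcb1b step up, and Abcc4 rises above the saline range at 72 h. The low red points of Abcb1b at -1.94 (24 h) and -1.39 (48 h) are the 2 arrays that stand apart.

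The 72 h groups were also set against the 24 h groups, to follow the later course. Of the 9 genes 3 were called in miR-155-/- kidneys, against 31.9% of all tested genes (13.6% higher and 18.3% lower), with Abcb1b (1.61 ± 0.38, limma adjusted p = 0.00160) and Abcc4 higher and Slc22a6 lower (-0.49 ± 0.13, limma adjusted p = 0.00587). Another 3 calls fell in wild type kidneys, against 26.6% of all tested genes (11.9% higher and 14.7% lower), namely Slc22a8, Abcc4 and Abcb1b (1.51 ± 0.38, limma adjusted p = 0.00314), all higher. Abcc2, Abcb1a, Slc22a2, Slc22a12 and Slc47a1 were called in neither genotype. Without the 2 arrays that stand apart, 6 genes were called in miR-155-/- kidneys, 3 higher (Slc22a8, Abcc4 and Abcb1b) and 3 lower (Slc22a6, Slc47a1 and Abcc2).

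The genotypes were compared at each time to ask whether loss of miR-155 alters these genes. In saline-treated mice 0 of the 9 were called by limma (0 at an unadjusted p under 0.05), against 0.114% of all tested genes, and the differences, miR-155-/- minus wild type, ran from -0.07 to 0.37. At 24 h 0 were called (2 at an unadjusted p under 0.05, Slc22a8 and Abcc2), against 0.0800%, with differences from -0.42 to 0.93, or from -0.25 to 0.90 without the 2 arrays that stand apart. At 48 h 0 were called (3 at an unadjusted p under 0.05, Slc22a2, Slc22a6 and Abcb1b), against 0.101%, with differences from -0.88 to 0.06. Without these 2 arrays the 48 h differences ran from -0.42 to 0.62, and that of Abcb1b was -0.35 in place of -0.88 and that of Slc22a8 0.62 in place of -0.03. At 72 h 1 was called, Slc22a6, against 0.720% of all tested genes (0.598% higher and 0.122% lower).

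Slc22a6 at 72 h averaged 5.20 ± 0.11 in miR-155-/- kidneys and 5.91 ± 0.10 in wild type kidneys (SD, n = 4 each), a 1.64-fold lower signal in miR-155-/- kidneys (-0.72 ± 0.13, limma adjusted p = 0.00662). The highest miR-155-/- array, at 5.35, was below the lowest wild type array, at 5.83. On the 3 slides that held both groups the difference was -0.70, -0.90 and -0.47, and with slide as a block -0.66 (limma adjusted p = 0.0219). The differences of Slc22a2, Slc22a8 and Slc22a12 were -0.43, -0.74 and -0.61, none called (limma adjusted p = 0.231, 0.597 and 0.126). Slc22a12 was called without replicate 4 of miR-155-/- at 72 h (-0.77, limma adjusted p = 0.0261), and 3 genes, Slc22a2, Slc22a6 and Slc22a12, without the 2 arrays that stand apart. The efflux genes differed by -0.31 to 0.29. Of the 15 proximal tubule markers 0 were called at 72 h between the genotypes, with differences from -0.75 to -0.15 and a median of -0.48, and their part in the lower Slc22a6 was not tested.

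Whether the response to cisplatin itself differed between the genotypes was tested by the interaction, which shares the saline mice over the times. By limma 0 of the 9 genes were called at 24, 48 or 72 h (1, 1 and 2 at an unadjusted p under 0.05), against 0%, 0% and 0.211% of all tested genes. For Slc22a6 at 72 h the responses differed by -0.65 ± 0.19 (limma adjusted p = 0.174), and for Slc22a12 by -0.69 ± 0.26 (limma adjusted p = 0.408). At 48 h Abcb1b differed by -0.89, and by -0.36 without the 2 arrays that stand apart. In a fit to the 4 groups compared alone, Slc22a6 (limma adjusted p = 0.0223) and Slc22a2 (-0.43, limma adjusted p = 0.0380) were called at 72 h.

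Other carriers of the same and related families were called lower more often than higher. Of 32 further transporter genes 31 were on the array and 30 tested. They include further ABC pump genes, and the list was not split into uptake and efflux. The miR-155-/- kidneys had 23, 18 and 18 called lower and 2, 3 and 4 higher than after saline at 24, 48 and 72 h, with medians of -1.03, -0.89 and -0.72, against 22.5%, 21.1% and 17.5% of all tested genes called lower and 26.6%, 22.7% and 17.7% higher. The wild type kidneys had 21, 13 and 11 called lower and 1, 3 and 3 higher, with medians of -0.92, -0.51 and -0.37, against 17.6%, 11.6% and 12.8% of all tested genes called lower and 21.0%, 12.2% and 12.5% higher. At 24 h those called higher were Slc47a2 in both genotypes and Abcc3 in miR-155-/- kidneys. No other ABC gene of this list was called higher at 24 h. Slc22a28, a mouse gene of the organic anion branch of the family, fell by 3.91 in miR-155-/- kidneys and by 3.11 in wild type kidneys on the log2 scale at 72 h (limma adjusted p = 2.62e-12 and 3.76e-10). Slc22a7, the gene for OAT2, fell by 2.52 in miR-155-/- and by 2.18 in wild type kidneys at 72 h (limma adjusted p = 1.69e-09 and 4.08e-08), and Slc17a3, a phosphate and urate carrier gene, fell by 1.65 in miR-155-/- and by 1.57 in wild type kidneys (limma adjusted p = 2.90e-09 and 1.49e-08). Slc22a19, an organic anion carrier gene of the same family, fell by 2.17 in miR-155-/- and by 1.87 in wild type kidneys at 72 h (limma adjusted p = 1.07e-09 and 2.80e-08). At 24 h the organic anion polypeptide gene Slco3a1 fell by 2.08 in miR-155-/- and by 2.48 in wild type kidneys (limma adjusted p = 3.80e-09 and 1.13e-10), and Slco1a6 by 1.91 in miR-155-/- and by 2.14 in wild type kidneys (limma adjusted p = 5.88e-07 and 9.89e-08). Close relatives in the Slc22a19 to Slc22a30 group may share probe signal, which was not tested.

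Few of these genes rose, and they were picked out after their values were seen. Abcc3, which encodes MRP3, a pump of the blood-facing membrane, was higher than after saline by 1.05, 1.67 and 2.40 (each ± 0.26) at 24, 48 and 72 h in miR-155-/- kidneys, all called, and by 0.02, 0.87 and 1.04 in wild type kidneys, of which the last 2 were called. Slco2a1, the prostaglandin carrier gene, was higher at 72 h by 1.78 ± 0.13 in miR-155-/- kidneys and by 1.06 ± 0.13 in wild type kidneys. Slc2a9, a urate carrier gene, was higher at 72 h by 1.07 ± 0.32 in miR-155-/- kidneys and by 1.79 ± 0.32 in wild type kidneys. Between the genotypes at 72 h Slco2a1 was higher (0.56 ± 0.13, limma adjusted p = 0.0341) and Slc13a3, the gene for the carrier that supplies dicarboxylates to the cell, lower (-0.87 ± 0.21, limma adjusted p = 0.0430) in miR-155-/- kidneys. Against saline Slc13a3 differed by -1.67, -1.29 and -1.01 at 24, 48 and 72 h in miR-155-/- kidneys, all called, and by -1.94, -0.53 and 0.02 in wild type kidneys, of which that of 24 h was called (each ± 0.21). The interaction of the genes in this paragraph is not given here, and calls that differ between the genotypes do not test it.

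**Figure D4:**
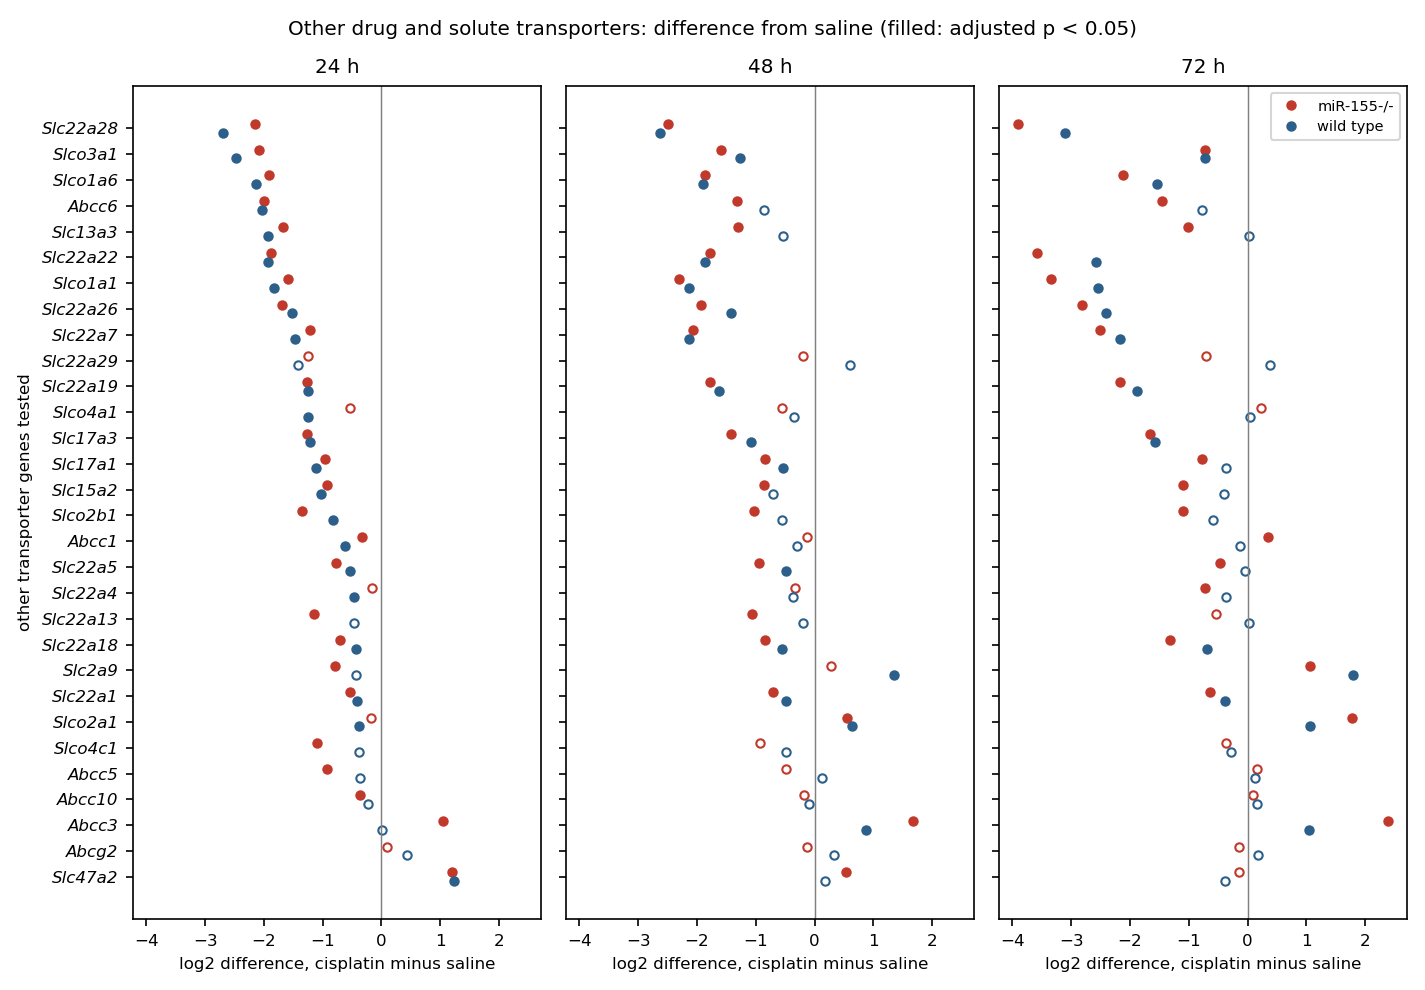
Log2 difference from saline (x axis, cisplatin minus saline) of the 30 other transporter genes tested at 24, 48 and 72 h, in miR-155-/- kidneys (red) and wild type kidneys (blue), ordered by the wild type value of 24 h, with filled points for adjusted p under 0.05. Most points lie left of 0, with Slc22a28 at -3.91 and -3.11 in miR-155-/- and wild type kidneys at 72 h, and Abcc3, Slco2a1 and Slc2a9 lie right of 0 at 72 h.

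Among 16 genes that regulate or anchor these carriers, 3, 3 and 4 were called higher and 8, 6 and 6 lower than after saline at 24, 48 and 72 h in miR-155-/- kidneys, and 5, 4 and 4 higher and 6, 3 and 2 lower in wild type kidneys. The shares of all tested genes were 26.6%, 22.7% and 17.7% higher and 22.5%, 21.1% and 17.5% lower in miR-155-/- kidneys, and 21.0%, 12.2% and 12.5% higher and 17.6%, 11.6% and 12.8% lower in wild type kidneys. The 16 genes lay above these shares at every time for calls lower in miR-155-/- kidneys (50%, 37.5% and 37.5%) and higher in wild type kidneys (31.2%, 25% and 25%). Calls higher in miR-155-/- kidneys (18.8%, 18.8% and 25%) lay below at 24 and 48 h and above at 72 h. Calls lower in wild type kidneys (37.5%, 18.8% and 12.5%) lay above at 24 and 48 h and just below at 72 h. With 16 genes, 1 call more or less moves a share by several percent. These positions are therefore not read as a result about the list. Nfe2l2, which encodes the stress factor Nrf2, known to drive several Abcc genes, was higher at 24 h by 1.01 ± 0.14 in miR-155-/- and by 1.03 ± 0.14 in wild type kidneys. Cebpb was higher by 1.45 ± 0.20 and Trp53, the p53 gene, by 1.52 ± 0.19 in miR-155-/- kidneys at 24 h, and by 1.56 ± 0.20 and 1.24 ± 0.19 in wild type kidneys. Pdzk1, which encodes a scaffold that holds carriers at the urine-facing membrane, differed from saline at 72 h by -1.26 ± 0.16 in miR-155-/- kidneys (limma adjusted p = 4.73e-07) and by -0.54 ± 0.16 in wild type kidneys (limma adjusted p = 0.0124). Slc9a3r1, for the partner scaffold NHERF1, differed at 72 h by -0.47 ± 0.09 in miR-155-/- kidneys, called, and by -0.09 ± 0.09 in wild type kidneys, not called. For both scaffold genes the interaction is not given here, and the calls do not test it. Nr1i2, the gene for the drug sensor PXR, was higher at 72 h by 0.95 ± 0.21 in miR-155-/- and by 1.33 ± 0.21 in wild type kidneys. Esr1, the estrogen receptor gene, differed at 48 h by -1.97 ± 0.34 in miR-155-/- and by -1.39 ± 0.34 in wild type kidneys, both called.

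Of the 9 promoter windows of the transporter genes, 4 held TGACNNNGC, the core of the antioxidant response element bound by Nrf2. They were those of Abcb1a, Abcc2 and both starts of Abcc4, without overlap with the other motifs searched. The same letters were held by 12.4% of all windows. Here too a match of letters is not a bound site, and a part of Nrf2 in these genes was not tested.

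Ordered by mean level, both saline groups came first for Slc22a2, Slc22a6, Slc22a12 and Slc47a1 and last for Abcc2, Abcb1a and Abcb1b, always with ranges apart from the next group. The share of all tested genes whose saline groups stood apart in this way is not given here. Those called against saline made up 23.8% to 49.1% of all tested genes, depending on time and genotype. The gap to the nearest cisplatin group was 0.68 for Slc22a2, 0.47 for Slc22a6, 0.89 for Slc22a12 and 0.62 for Slc47a1, and 0.82 for Abcc2, 0.84 for Abcb1a and 1.87 for Abcb1b. Among the cisplatin groups of these 7 genes neighbours overlapped, save that Slc22a6 in miR-155-/- kidneys at 72 h was apart from wild type kidneys at 24 h, and Abcc2 in wild type kidneys at 24 h from all others. For Abcc4 the order had the 72 h groups on top, then 48 h and saline, then 24 h, and for Slc22a8 each group overlapped the next.

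Genes with the course most like that of a transporter were sought over the 7 group means relative to saline-treated wild type kidneys, by the root mean square of the log2 differences. Nearest to Slc22a2 were Mccc1 (0.07), Pfkm (0.08) and Iqsec2 (0.09), and nearest to Slc47a1 were Pgap6 (0.04), Adh1 (0.09) and 0610009L18Rik (0.10). Nearest to Abcb1b were Cox6b2 (0.29), Ephx1 (0.31), the microsomal epoxide hydrolase gene, and Abcb4 (0.36), the phospholipid pump gene next to Abcb1b on chromosome 5.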

How the data were processed

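Per the labels, 1 Agilent array (4x44k version 2, Cy3 alone) was run for each of 32 kidneys, from RNA with an integrity number above 8.0 (average 8.5). Per the file headers, the authors deposited linear intensity from Feature Extraction 10.7.3.1 (protocol GE1_107_Sep09), with background subtracted and spatial trends removed. The authors' deposited value table held the same intensity times 1 factor per array. Symbols came through probe accessions from RefSeq names of GRCm38.p6, while the arrays were annotated on mm9. The only coordinates given are therefore those of the promoter windows shown, on GRCm38.p6.

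Processed signals were taken to log2 and centred on each array's 75th percentile (1531 to 2647 intensity units). Outlier-flagged spots (59 to 976 per array) were left out, and 0 were saturated. Each gene was represented by its brightest probe, and tested if at least 1 group had 4 of 4 arrays well above background and no group had fewer than 3 values, which left 23743 genes. Tests were 2-sided, with limma 3.58.1 in R 4.3.3 (mean-variance trend, residual degrees of freedom 24, prior 3.8), checked on simulated data. The number of arrays limits the precision.

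All 9 transporter genes are named in every comparison, with up to 4 called members of smallest adjusted p from the wider lists, save 1 gene that is not reported here. The members and lists were chosen with earlier results of these data known. Promoters were searched on both strands for the motifs spelled out above and for 3 more. The HNF4 motif CAAAGTCCA was held by no transporter window and by 0.475% of all windows. The AP-1 motif TGANTCA was also held by none, against 7.81%. The aryl hydrocarbon receptor core GCGTG was in 1 window, of Abcc4, against 32.4%. Alternatives were quantile normalization, no filter on dim probes, slide or replicate number as a block, the deposited table, the mean of all probes, only the groups compared, and leaving out arrays. Normexp on median signals, scan day as a block, flagged spots kept and leaving out the 2 arrays that stand apart were chosen after seeing the data. Arrays of the same replicate number did not deviate together (mean correlation -0.0046 over 112 pairs), so the replicate numbers were not taken as pairs. Arrays of 1 slide and different groups did so more (0.245 over 48 pairs). The main fit held no term for slide, so its p-values treat arrays of 1 slide as independent. Slide entered only as a block among the alternatives.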

Additional observations from a re-analysis of the deposited data

Results flagged for a closer look

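Of 70 sets of 4 values, 1 per transporter gene and group, 6 held an array far from the other 3, and about 5% of such sets is set apart by chance. Replicate 3 at 48 h in miR-155-/- mice gave 3 of them, at -3.09 for Slc22a8 (nearest array -0.53), at 2.94 for Abcc2 (nearest 3.58) and at -0.92 for Abcc4 (nearest 0.96). Replicate 3 at 24 h in miR-155-/- mice stood at -1.94 for Abcb1b (nearest -0.16). Slc22a8 held the other 2, at 0.0146 in replicate 4 at 72 h in miR-155-/- mice (nearest -0.86) and at -1.69 in replicate 3 at 24 h in wild type mice (nearest -2.94).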

How the results depend on the processing

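The 135 differences of single transporter genes kept their direction and side of the threshold in 2672 of 2781 alternative values, while 33 gained a call, 12 lost one and 64 turned sign, none of the last called before or after. For 78 of them, those against saline, between the genotypes and of the interaction at 72 h, and the called ones of 72 h against 24 h, the results kept their direction and side of the threshold in 1519 of 1554 alternative values, while 19 gained a call, 12 lost one and 4 turned sign. Some alternatives leave a difference the same, or nearly so, by construction. These are the deposited table, the mean of all probes, no filter on dim probes, the replicate block and only the groups compared. Their values count in both tallies, which therefore say less about direction than their size. The 47 called differences from saline gave 61 values within a slide and 94 within a scan day, all of the same sign. In each of the 47 the cisplatin and saline arrays did not overlap. The sign was thus fixed in advance, and these values do not test slide or scan day. No slide held wild type kidneys of both 72 h and saline. Among the 78, signs turned for Abcc4 at 24 h in wild type (0.74 with flagged spots kept) and at 48 h in miR-155-/- kidneys (-0.15 with slide as a block), for Slc22a8 at 72 h in wild type kidneys (-0.0082 with slide as a block), and for Abcb1a between the genotypes at 72 h (0.17 after normexp), none of them called. Normexp moved the median of all genes against saline by -0.10 to 0.36, and relative to that median all 47 called differences kept their sign.

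The number of transporter genes called changed by over 1.5 times for 72 h against 24 h (6 in wild type with only the groups compared, 6 in miR-155-/- without the 2 arrays that stand apart), for the genotypes at 72 h (2 with only the groups compared, 3 without the 2 arrays, 1 to 2 over arrays left out in turn) and for the interaction at 72 h (2 with only the groups compared). The cause was not tested. With the replicate block the counts were 8, 8 and 8 in miR-155-/- and 8, 7 and 8 in wild type kidneys at 24, 48 and 72 h, as without it, while 72 h against 24 h gave 3 in miR-155-/- and 4 in wild type kidneys, and the interaction at 24, 48 and 72 h stayed at 0.

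Over all genes, normexp called 7129, 5164 and 4759 at 24, 48 and 72 h in miR-155-/- kidneys and 5223, 2961 and 3029 in wild type kidneys, against 11663, 10396 and 8364, and 9180, 5657 and 6018. Only the groups compared gave 5806 at 48 h in miR-155-/- and 9736 at 72 h in wild type kidneys, and leaving out the 2 arrays 8753 at 48 h in wild type kidneys. Between 72 and 24 h normexp gave 4808 in miR-155-/- and 3627 in wild type kidneys (main 7579 and 6306). For the genotypes at 72 h the 171 genes became 63 (normexp), 259 (slide block), 853 (only the groups compared) or 1077 (without the 2 arrays), and 42 to 360 over arrays left out, the last without miR-155-/- replicate 4. The 50 interaction genes of 72 h became 4, 153, 672 and 391 in the same order, 30 with the replicate block, 32 without the filter on dim probes, 101 after quantile normalization, and 12 to 160 over arrays left out. Only the groups compared gave 4639 for 72 against 24 h in miR-155-/- kidneys. The 24 genes of the genotypes at 48 h became 71 (slide block) or 1 (only the groups compared), and the 27 and 19 at 0 and 24 h became 9 and 5 (normexp), 17 and 12 (only the groups compared), 43 (0 h, quantile) and 73 (0 h, without the 2 arrays), with 16 to 60 at 0 h and 14 to 36 at 48 h over arrays left out. The interaction's 0 at 24 and 48 h became 3 and 4 (quantile), and 6 at 48 h (slide block). Normexp on mean signals was not run, because these were not used here. The 9 genes were well above background on all arrays kept. In miR-155-/- kidneys, calls of Abcb1a at 24 h and of Slc22a8 at 48 and 72 h still changed with normexp background correction, as given above.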
